A study of Citrus reticulata and Citrus x clementina and Citrus x paradisi with 16 samples.

Results

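The ovules of a polyembryonic and a monoembryonic mandarin were compared at 7 days after flowering (DAF), the day on which initiation cells of nucellar embryos were first seen in the polyembryonic cultivar (nucellar embryo initiation, NEI). The polyembryonic cultivar was 'Huagan No.2' Ponkan (PK, Citrus reticulata) and the monoembryonic one was 'Nour' clementine (CM). In CM the stage name marks only the matching day. Each cultivar had 2 libraries at this stage, so that the comparison rested on 4 of the 16 mRNA libraries of the series. The 4 libraries of the same cultivars at 3 DAF (pre-NEI) lent their spread but no mean. They also entered the filter, the choice of transcript per locus and the scaling. Flowers of both cultivars had been hand pollinated with pollen of trifoliate orange, and the ovules of a library were a pool from several trees. The 2 replicates of a group were collected in consecutive years, and which replicate belongs to which year is not given in the sources used here. With 1 cultivar of each kind, the number of embryos and everything else that sets PK apart from CM cannot be told apart. All p-values reflect how far libraries of the same group lay from each other. The table held 20373 assembled loci, of which 18749 reached 1 CPM (counts scaled to library size) in at least 2 of the 8 mandarin libraries and were tested. Just inside this limit lay XLOC_001883, whose second-highest library had 1.00 CPM, and just outside lay XLOC_020279 with 0.996 CPM.

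In polyembryonic citrus, additional embryos arise from cells of the nucellus, the maternal tissue that surrounds the embryo sac, and these embryos carry the genotype of the mother. The initiation cells have dense cytoplasm, a large nucleus and thickened walls, and lie among nucellus cells that do not become embryos. Enzymes that oxidise phenolics in the cell wall (laccases and class III peroxidases), enzymes that modify secondary metabolites (cytochrome P450s, methyltransferases, glycosyltransferases), defence proteins and transcription factors controlled by microRNAs are the groups described here. Because whole ovules were pooled, fewer cells of a type and less RNA per cell cannot be told apart.

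The tissue could be checked against markers only in part. The table holds no gene descriptions, and annotations of the study could be matched to 761 of 20373 loci only. None of the ovule identity genes looked for was named among these. The 1 embryogenesis regulator found in the study's annotation had no locus in the table. Whether other loci of the table are such genes could not be looked up. Of green tissue markers, photosystem I subunit F (XLOC_004089) had 8.07 and 57.6 CPM in PK and 17.1 and 20.6 CPM in CM. A chlorophyll a-b binding protein (XLOC_019518) had 23.4 and 53.9 CPM in PK against 40.8 and 26.6 CPM in CM. Both were lowest in PK replicate 1 and highest in PK replicate 2, and neither was called.

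The 4 libraries held 18.1 to 19.5 megacounts. A count of 0 allowed up to 3 counts, or 0.139 to 0.204 CPM, which covers counting error only. The replicates of a cultivar were about as unlike as the cultivars were. Across all loci tested, log2 CPM had a Pearson correlation of 0.904 between the PK replicates and 0.909 between the CM replicates, against 0.902 between PK and CM replicate 1 and 0.920 between PK and CM replicate 2. Libraries of different cultivar and different number had the lowest values, 0.877 and 0.850. Of 12933 loci with a mean of at least 5 CPM, 949 (7.34%) differed 4-fold or more between the PK replicates and 777 (6.01%) between the CM replicates. Between the cultivar means 336 (2.60%) did so. These shares are not like for like, since means of 2 libraries vary less than single libraries. A shift shared by replicate number also cancels between the means. Replicate 1 was at least 4-fold higher in both cultivars at 254 of the 12933 loci, replicate 2 was so at 52, and the cultivars went opposite ways at 3. Values from a fit that also holds the replicate number (the block) are therefore printed at many of the loci whose call they change. Where none is printed, the call may still have changed. What part the year of collection had in any value was not tested.

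A locus was called at an adjusted p under 0.05 (edgeR quasi-likelihood test, Benjamini-Hochberg over 18749 loci) and a log2 fold change of 1 or more in size. In all, 307 loci (1.64%) were called, 93 higher in PK (0.496%) and 214 lower in PK (1.14%). With the block 625 (3.33%) were called, 247 higher (1.32%) and 378 lower (2.02%). DESeq2 called 1085 (5.79%), with 434 (2.31%) higher and 651 (3.47%) lower. The edgeR exact test called 808 (4.31%), with 301 (1.61%) higher and 507 (2.7%) lower. DESeq2 and the fit with the block called all 307, and the exact test called 305 of them. The share of calls that were higher in PK was 30.3%, and it was 39.5% in the fit with the block, 40% in DESeq2 and 37.3% in the exact test. The median log2 fold change of all loci was 0.02. Both PK libraries lay above both CM libraries at 3131 loci (16.7%) and below both at 3359 (17.9%). An unadjusted p under 0.05 was found at 2258 loci (12%).

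The calls leaned on every library. With the 4 libraries of this stage alone, 0 loci were called by the quasi-likelihood test (lowest adjusted p 0.0507), and 1487 had an unadjusted p under 0.05. Without PK replicate 1 of this stage 13 loci were called, without PK replicate 2 22, without CM replicate 1 2 and without CM replicate 2 102. The lone library is then assumed to vary like the other groups. Without a library of the earlier stage the count was 138 (PK replicate 1), 135 (PK replicate 2), 39 (CM replicate 1) and 37 (CM replicate 2). Of 34 called loci that the naming rule picked, 1, 2, 0 and 7 stayed called without the NEI libraries in the same order, and 11, 11, 2 and 2 without those of pre-NEI. Of the 307 loci, 34 stayed called in at least 5 of these 8 fits and 157 in none. Only XLOC_008863 and XLOC_004706 were called in all 8, and neither carries a gene of the clementine annotation. XLOC_008863 (scaffold 4, 14058100 to 14059490) had 0.288 and 0.292 CPM in PK against 96.1 and 81.2 CPM in CM. XLOC_004706 (scaffold 2, 31363019 to 31364235) had 0.230 and 0.341 CPM in PK against 136 and 97.6 CPM in CM.

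**Figure D1:**
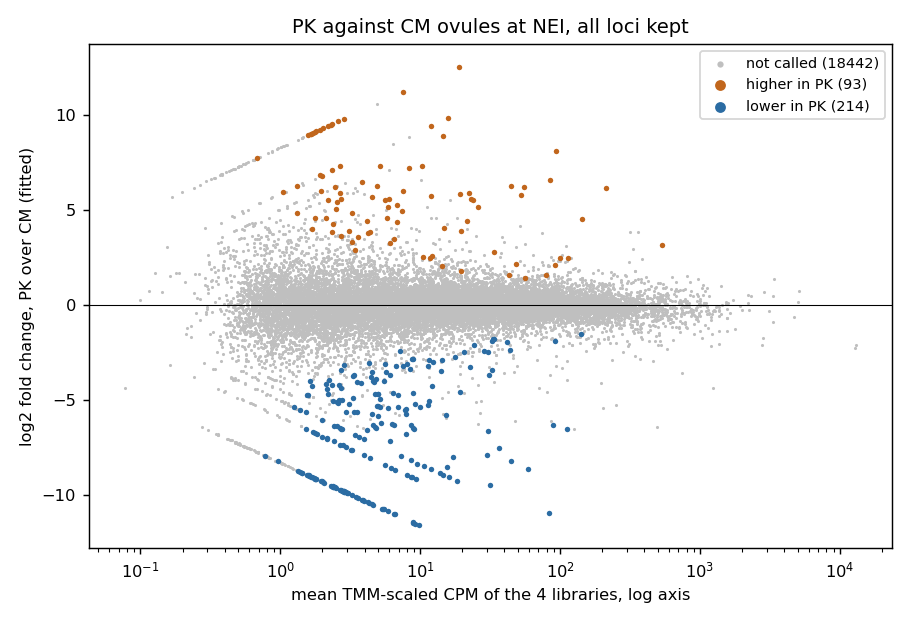
Fitted log2 fold change of PK over CM at NEI (vertical axis) against the mean CPM of the 4 libraries (horizontal log axis) for 18749 loci. Of the 307 called loci most lie far from 0 at low levels, and the oblique lines at the left are loci with no count in one cultivar.

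Most calls were of loci close to absent in one cultivar. Of the 214 loci lower in PK, 182 (85.0%) had a mean under 1 CPM in PK, and of the 93 loci higher in PK, 67 (72.0%) had a mean under 1 CPM in CM. The fitted difference was 16-fold or more at 241 loci, 4 to 16-fold at 56 and 2 to 4-fold at 10. The share called was 0.22% among loci with a mean under 1 CPM, 3.64% among loci with a mean of 1 to 5 CPM, 2.09% from 5 to 20 CPM, 0.656% from 20 to 100 CPM and 0.244% at 100 CPM or more. Among the called loci 177 (57.7%) had no gene of the clementine annotation, against 18.4% of all loci tested, and their median length was 1296 bp against 1678 bp. The reads of both cultivars had been aligned to the clementine genome, which is the reference of CM and not of PK. What part this had in the 214 and 93 loci was not tested.

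**Figure D2:**
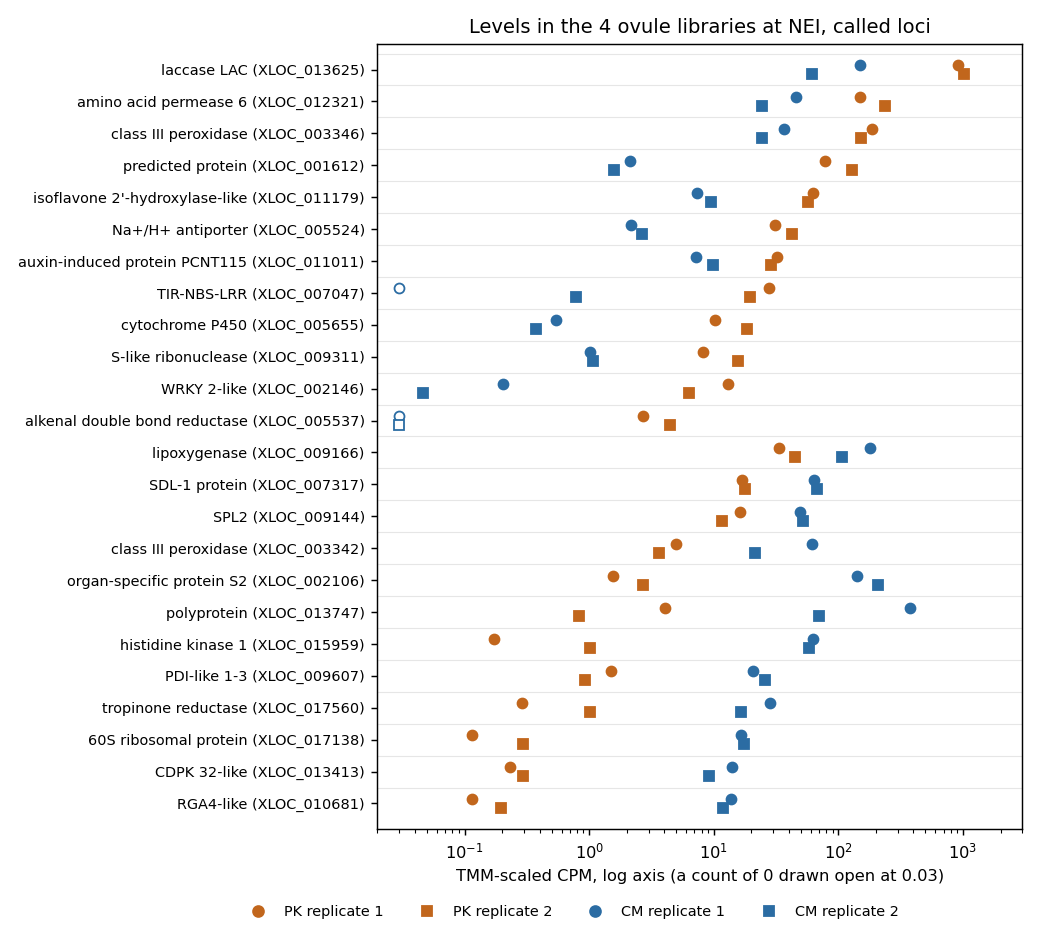
CPM (horizontal log axis) of 24 called loci in each of the 4 libraries at NEI, with PK in orange and CM in blue, replicate 1 as circles and replicate 2 as squares, and open symbols at 0.03 for a count of 0. At each locus both libraries of one cultivar lie above both of the other, with laccase LAC at 906 and 1014 CPM in PK and 150 and 61.2 CPM in CM.

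Among the gene lists, that of peroxidases and redox enzymes held the most calls, 6 of 7, and the laccase LAC was the most abundant locus called. Laccases are copper enzymes of the cell wall that couple monolignols and other phenolics. The laccase LAC (XLOC_013625, Ciclev10011377m.g, scaffold 6, 15301388 to 15304785) had 906 and 1014 CPM in PK against 150 and 61.2 CPM in CM. The PK libraries lay close together, while the CM libraries differed by more than the PK ones did. LAC was 9.11-fold higher in PK (adjusted p 0.0389), with a log2 fold change of 3.19 and an SE of 0.53 from 2 libraries a group. With 1 library left out its adjusted p was 0.0764 to 0.125. Per length, the authors' pooled FPKM of LAC was 522 in PK and 59.6 in CM. LAC is also 1 of 4 laccase loci among the predicted targets of miR397. The other 3 had low levels, and none was called. Its neighbour XLOC_013626 had 5.76 and 12.6 CPM in PK against 2.04 and 2.23 CPM in CM (2.10 ± 0.60, adjusted p 0.179). XLOC_014407 and XLOC_016017 had log2 fold changes of 0.42 and -1.17.

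The peroxidase and redox entries come from a list of genes that the study found to differ in both its cultivar pairs (the common list). It was chosen on these samples and is not independent evidence of direction or of how many members are called. The cell wall, P450, carrier, organ- and seed-associated, kinase, ankyrin repeat, heat shock and transposon entries below come from the same list. So do the methyltransferases, glycosyltransferases and defence hydrolases. Over all loci 1.64% were called, and 3.33% with the block. Of the 7 peroxidase and redox entries 5 were higher in PK, 1 was lower and 1 was not called (median log2 fold change 2.56, against 0.02 over all loci). Class III peroxidases are secreted enzymes that oxidise phenolics with hydrogen peroxide. The peroxidase XLOC_003346 (scaffold 2, 4941567 to 4986631) had 185 and 153 CPM in PK against 36.8 and 24.6 CPM in CM (2.46 ± 0.33, adjusted p 0.0209). On the same scaffold the peroxidase XLOC_003342 (4895611 to 4898595) went the other way, with 4.95 and 3.65 CPM in PK against 60.9 and 21.5 CPM in CM (-3.26 ± 0.53, adjusted p 0.037). The peroxidase XLOC_012940 on scaffold 5 had 17.5 and 18.1 CPM in PK against 3.26 and 2.79 CPM in CM. The short loci XLOC_004476 and XLOC_004477 lie inside the span of XLOC_003346 and may share its reads, so that these 3 are not separate evidence. They had 10.1 and 5.70 CPM and 3.40 and 6.58 CPM in PK, and at most 0.651 CPM in CM.

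Also in this list, an NADP-dependent alkenal double bond reductase, an enzyme that reduces reactive carbonyls (XLOC_005537, scaffold 3), had 2.71 and 4.43 CPM in PK and no count in either CM library. Phospholipid hydroperoxide glutathione peroxidase (XLOC_007062), which reduces lipid peroxides, had 21.4 and 21.4 CPM in PK and 6.25 and 8.27 CPM in CM. Its replicates were close in both cultivars and the groups did not overlap. The fitted difference was 1.56 ± 0.35 with an adjusted p of 0.0866, and of 0.0503 with the block, so that neither fit called it.

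**Figure D3:**
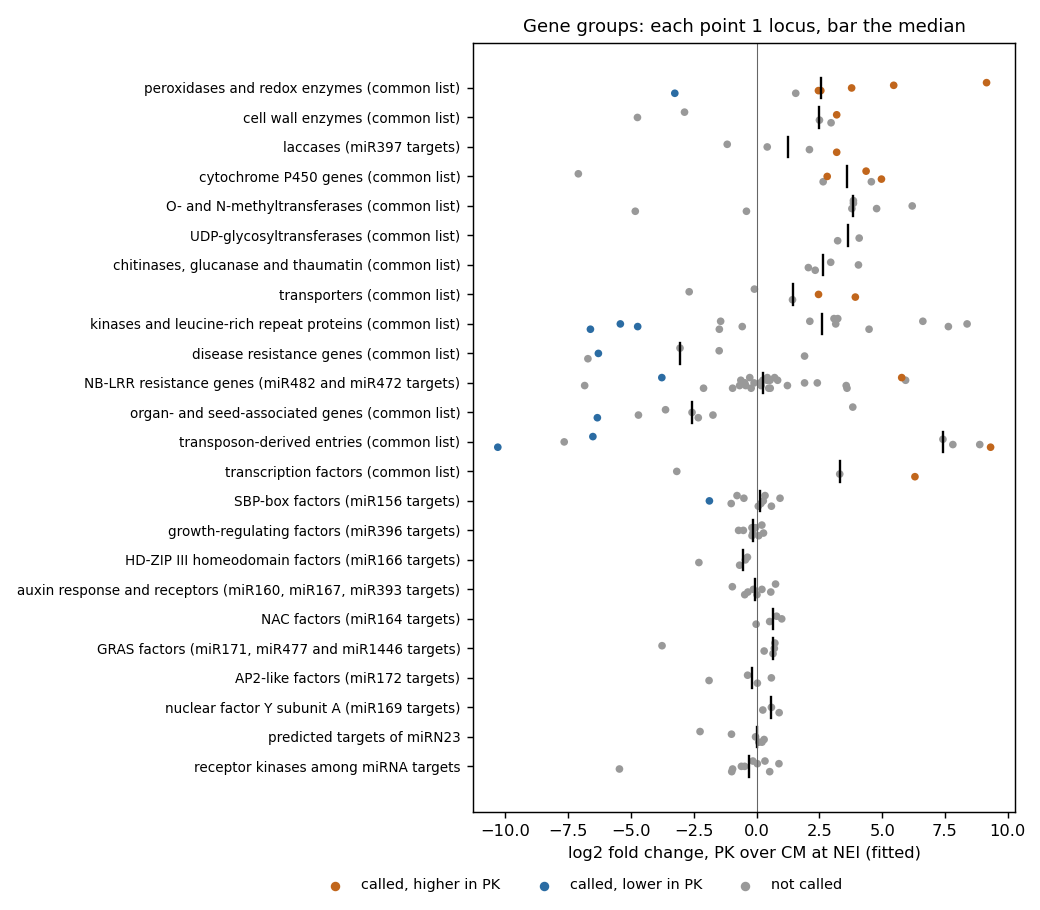
Fitted log2 fold change of PK over CM at NEI (horizontal axis) for the tested members of 24 gene groups, with called loci in colour and the group median as a bar. The groups of the study's common list spread widely and hold most of the calls, such as 6 of 7 peroxidase and redox entries. That list was chosen on these samples, so its spread and calls cannot be compared with those of the other groups. The medians of the transcription factor families among microRNA targets lie within 0.66 of 0, with SPL2 as their 1 called member.

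Other enzymes of the cell wall gave fewer calls. Pectinesterase 2 (XLOC_006329), which removes methyl groups from pectin, had 200 and 209 CPM in PK against 50.4 and 21.9 CPM in CM. Its log2 fold change was 2.50 ± 0.51 with an adjusted p of 0.0671, and of 0.0383 with the block. A blue copper protein (XLOC_001111) reached 1021 CPM in PK replicate 1 and 146 CPM in PK replicate 2, against 88.5 and 61.0 CPM in CM (adjusted p 0.295). An arabinofuranosidase (XLOC_018605), which removes arabinose side chains from wall polysaccharides, had 61.6 and 51.8 CPM in PK and 362 and 468 CPM in CM (-2.87 ± 0.96, adjusted p 0.270). A second pectinesterase (XLOC_012013) had at most 0.346 CPM in PK and 12.9 and 1.81 CPM in CM. Of these 5 cell wall entries, LAC included, 1 was higher in PK and none was lower, or 2 were higher with the block (median 2.50). DESeq2 and the edgeR exact test each called 3 higher and 2 lower.

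Cytochrome P450s are monooxygenases of secondary metabolism. Of 6 in the common list 3 were higher in PK and none was lower, with 5 higher with the block (median 3.58). XLOC_011179, annotated as like an isoflavone 2'-hydroxylase (scaffold 5), had 62 and 56.8 CPM in PK against 7.34 and 9.57 CPM in CM (2.81 ± 0.33, adjusted p 0.0139). XLOC_005655 on scaffold 3 had 10.2 and 18.5 CPM in PK against 0.544 and 0.372 CPM in CM. The groups were far apart at this locus and the PK libraries differed less than the cultivars. On scaffold 8 a pair of loci annotated as P450 76C4 stood side by side in the list. XLOC_017955 had 15.3 and 10.7 CPM in PK against 0.136 and 1.07 CPM in CM (adjusted p 0.0497). XLOC_017956 had 41.0 and 29.7 CPM in PK against 0.136 and 2.74 CPM in CM (4.57 ± 0.99, adjusted p 0.0791, and 0.0304 with the block). Such paralogs may hold each other's reads. The CYP72A59 locus XLOC_005584 had 55.2 and 166 CPM in PK and 14 and 21.3 CPM in CM (adjusted p 0.229, and 0.0242 with the block). XLOC_011444 had no count in PK and at most 1.02 CPM in CM, and was not called.

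Of 5 tested membrane carriers of the common list 2 were called, both higher in PK. Amino acid permease 6 (XLOC_012321, scaffold 5), which imports amino acids into cells, had 150 and 239 CPM in PK against 45.9 and 24.5 CPM in CM (2.46 ± 0.43, adjusted p 0.0422). A Na+/H+ antiporter (XLOC_005524, scaffold 3), which exchanges sodium for protons across membranes, had 31.2 and 42.7 CPM in PK against 2.18 and 2.65 CPM in CM (3.93 ± 0.48, adjusted p 0.0154). Both cultivars had close replicates at the antiporter, and it stayed called in 4 of the 8 fits that left out a library. The ABC transporter B family member (XLOC_012713) had 0.807 and 0.779 CPM in PK and 3.13 and 7.11 CPM in CM (adjusted p 0.249).

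Further loci called higher in PK lay outside the groups above. XLOC_011011, named for an auxin-induced protein first described in tobacco, had 32.1 and 28.5 CPM in PK against 7.21 and 9.94 CPM in CM (1.82 ± 0.33, adjusted p 0.049). An S-like ribonuclease (XLOC_009311), of a class that breaks down RNA outside the nucleus, had 8.18 and 15.8 CPM in PK against 1.02 and 1.07 CPM in CM (3.51 ± 0.63, adjusted p 0.0446). A locus annotated as a probable WRKY transcription factor 2 (XLOC_002146, scaffold 2, 220480 to 222717) had 13 and 6.33 CPM in PK against 0.204 and 0.0465 CPM in CM. WRKY factors bind promoters of many stress genes. It was 1 of 3 transcription factors of the common list that were tested. Of the other two, an AP2/ERF factor (XLOC_004841) had 22.3 and 123 CPM in PK against 1.84 and 12.7 CPM in CM, with the replicate 2 library the higher in both cultivars. The MADS box locus GHMADS-2 (XLOC_007004) had 0.403 and 0.487 CPM in PK against 4.42 and 3.76 CPM in CM (-3.18 ± 0.60, adjusted p 0.0529, and 0.0316 with the block).

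Among loci lower in PK, the lipoxygenase XLOC_009166 (Ciclev10030653m.g, scaffold 4, 21537472 to 21542589) had 33.1 and 44.6 CPM in PK against 181 and 107 CPM in CM (-1.89 ± 0.35, adjusted p 0.0497). Lipoxygenases add oxygen to polyunsaturated fatty acids, the first step towards jasmonates and other oxylipins. It was called with the block (adjusted p 0.0267) and in none of the 8 fits that left out a library (0.0528 to 0.194). The SDL-1 locus (XLOC_007317, scaffold 3) had 16.8 and 17.7 CPM in PK against 64.2 and 67.4 CPM in CM (-1.93 ± 0.31, adjusted p 0.0344). Organ-specific protein S2 (XLOC_002106, scaffold 111) had 1.56 and 2.73 CPM in PK against 140 and 209 CPM in CM (-6.34 ± 1.11, adjusted p 0.0423).

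The last is 1 of 7 tested organ- and seed-associated entries, of which 1 was called, lower in PK, and 3 were lower with the block (median -2.57). A bark storage protein (XLOC_005799), of a family that stores nitrogen, had 4.38 and 2.44 CPM in PK and 13.7 and 26.7 CPM in CM (-2.57 ± 0.50, adjusted p 0.0575, and 0.0342 with the block). The BURP domain locus XLOC_017852 had 5.30 and 33 CPM in PK against 68.9 and 123 CPM in CM (adjusted p 0.428, and 0.0324 with the block). The replicate 2 library was the higher at both BURP loci in both cultivars. The locus of a MOTHER of FT and TFL1-like protein (XLOC_000390) was not tested, since it had 16.0 CPM in CM replicate 1 and at most 0.0974 CPM elsewhere.

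Kinases and leucine-rich repeat entries of the common list were called only on the lower side, 3 of 14 (median 2.60). With the block 5 were higher and 3 lower. A histidine kinase 1 locus (XLOC_015959, scaffold 7), which in Arabidopsis encodes an osmosensor, had 0.173 and 1.02 CPM in PK against 63.1 and 57.9 CPM in CM (-6.62 ± 0.71, adjusted p 0.013). The locus holds 3 genes of the annotation and overlaps 5 further loci, so its reads may not be those of the kinase. A calcium-dependent protein kinase 32 locus (XLOC_013413, scaffold 6), of a family that reads calcium signals, had 0.230 and 0.292 CPM in PK against 13.9 and 9.15 CPM in CM (-5.42 ± 0.59, adjusted p 0.0136). The leucine-rich repeat locus XLOC_013197 had 0.115 and 0.0974 CPM in PK against 2.52 and 3.44 CPM in CM. Of the 5 that the block called higher in PK, the L-type lectin receptor XLOC_017949 had 37.6 and 2.78 CPM in PK against 0.272 and 0.139 CPM in CM (adjusted p 0.206, and 0.0258 with the block).

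Further loci lower in PK were a protein disulfide isomerase (XLOC_009607), which forms disulfide bonds in the endoplasmic reticulum, a tropinone reductase (XLOC_017560), a class of dehydrogenases named for alkaloid synthesis in Solanaceae, and an ATP-binding protein (XLOC_010905). The isomerase had 1.5 and 0.926 CPM in PK against 20.7 and 25.6 CPM in CM (-4.25 ± 0.56, adjusted p 0.0197). The reductase had 0.288 and 1.02 CPM in PK against 28.5 and 16.6 CPM in CM (-5.07 ± 0.83, adjusted p 0.037). The ATP-binding protein had 0.173 and 0.195 CPM in PK against 15.9 and 19.8 CPM in CM (-6.55 ± 0.73, adjusted p 0.0138). A 60S ribosomal protein locus (XLOC_017138) had 0.115 and 0.292 CPM in PK against 16.5 and 17.5 CPM in CM (-6.31 ± 0.60, adjusted p 0.0106). At these 4 loci PK had at most 1.5 CPM in either library. Calls of this kind were also found for 1 of 2 tested ankyrin repeat loci (XLOC_005621, 0.519 and 0.195 CPM in PK, 6.39 and 11.8 CPM in CM). The same held for 1 of 3 tested heat shock entries (XLOC_013299, at most 0.0487 CPM in PK, 3.40 and 3.86 CPM in CM). The other 2 heat shock entries had positive log2 fold changes and were not called (list median 2.30). DESeq2 called 2 of the list higher and 1 lower. The ankyrin repeat locus that the study followed by PCR (XLOC_000733) failed the filter and was not tested. It had 0.115 and 0.292 CPM in PK and 10.4 and 0.604 CPM in CM.

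Entries derived from transposons differed in both directions. Of 7, 1 was higher and 2 were lower in PK, or 3 higher and 2 lower with the block. A polyprotein locus (XLOC_013747, scaffold 6) had 4.03 and 0.828 CPM in PK against 373 and 70.5 CPM in CM (-6.52 ± 1.15, adjusted p 0.0437). In both cultivars replicate 1 was the higher, and the ratio of CM to PK was alike in the replicates. The non-LTR retroelement XLOC_018416 had no count in PK and 10.3 and 5.62 CPM in CM. The En/Spm-like locus XLOC_001324 had 3.11 and 4.87 CPM in PK and no count in CM, and it overlaps XLOC_001943, which had 0.807 and 1.997 CPM in PK and none in CM.

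At the 3 most abundant methyltransferases the PK replicates lay further apart than the cultivar means did. These enzymes move methyl groups onto phenolics and onto anthranilate. The O-methyltransferase XLOC_007011 (scaffold 3) had 1282 CPM in PK replicate 1 and 55.9 CPM in PK replicate 2, against 75.8 and 16.9 CPM in CM. PK exceeded CM 16.9-fold in replicate 1 and 3.31-fold in replicate 2, yet PK replicate 2 lay below CM replicate 1. The log2 fold change was 3.85 ± 1.39 with an adjusted p of 0.320, and of 0.0728 with the block. XLOC_007010, close to it on the scaffold, had nearly equal values (1135 and 51.2 CPM against 66.1 and 16.0 CPM), and such paralogs may hold the same reads. XLOC_016883, annotated as a catechol O-methyltransferase, had 266 and 10.3 CPM in PK and 17.4 and 2.65 CPM in CM. In contrast, XLOC_010730 had 78.6 and 10.8 CPM in PK and 106 and 12 CPM in CM, which followed the replicate but hardly the cultivar. None of the 7 methyltransferases was called (median 3.85). With the block 1 was higher, XLOC_007009, with 12.6 and 0.877 CPM in PK against 0.136 and 0.0465 CPM in CM (adjusted p 0.110, and 0.0351 with the block). DESeq2 called 5 higher and 1 lower.

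The glycosyltransferases and the defence hydrolases followed the same replicates to a smaller degree. UDP-glycosyltransferases attach sugars to small molecules. The UGT92A1-like locus (XLOC_003368) had 40.3 and 5.85 CPM in PK against 3.47 and 1.49 CPM in CM (adjusted p 0.201, and 0.0340 with the block). The UGT76C4 locus (XLOC_019190) had 22.6 and 9.55 CPM in PK against 1.36 and 0.558 CPM in CM (adjusted p 0.0712, and 0.0399 with the block). Its ratio of PK to CM was 16.7 in replicate 1 and 17.1 in replicate 2, although its level differed between the replicates.

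Chitinases and glucanases cut polysaccharides of fungal and plant walls. The 4 chitinase, glucanase and thaumatin loci are from the common list, whose choice on these samples fixes much of their direction. Both PK libraries lay above both CM libraries at each of them, as at 16.7% of all loci, and none was called by the quasi-likelihood test (median 2.64). With the block 3 were higher. The glucan endo-1,3-beta-glucosidase XLOC_000585 had 226 and 149 CPM in PK against 50.4 and 24 CPM in CM (adjusted p 0.150, and 0.0144 with the block). The acidic endochitinase locus ACTL (XLOC_019915) had 60.8 and 9.99 CPM in PK against 6.46 and 2.74 CPM in CM (adjusted p 0.205, and 0.0379 with the block). The thaumatin-like XLOC_013426 had 18.4 and 4.73 CPM in PK against 1.09 and 0.325 CPM in CM. The chitinase XLOC_007287 had 63.5 and 33.4 CPM in PK against 14.2 and 9.06 CPM in CM, and it was not called with the block either (adjusted p 0.0826).

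**Figure D4:**
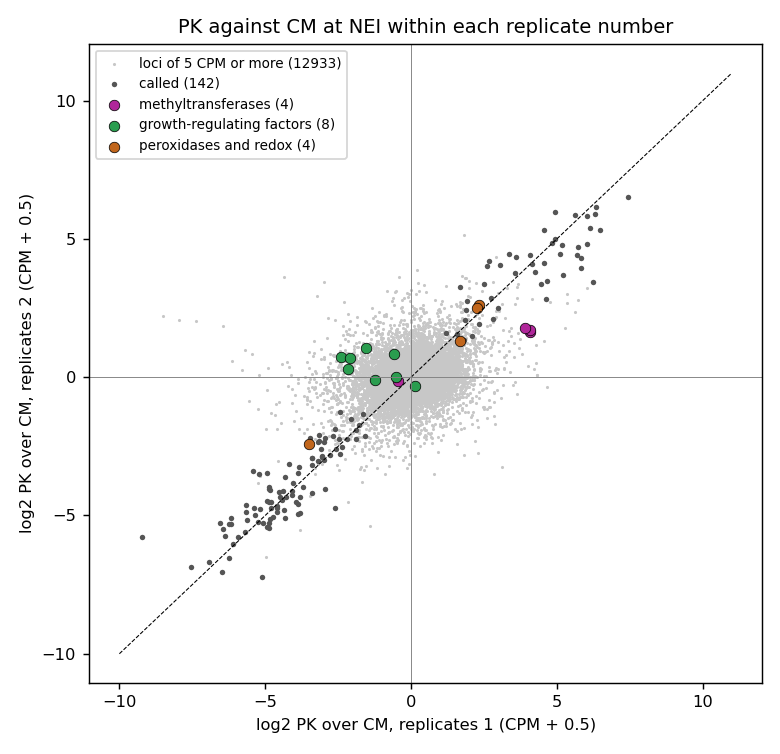
Log2 ratio of PK to CM, with 0.5 CPM added, in the replicate 2 libraries (vertical axis) against that in the replicate 1 libraries (horizontal axis) for 12933 loci of at least 5 CPM. Called loci lie along the dashed diagonal, which follows in part from a test that asks for replicates close together. Of the 4 methyltransferases, 3 lie below the diagonal, with ratios of 15.3 to 17.2 in replicate 1 and 3.19 to 3.88 in replicate 2. Several growth-regulating factors lie below 0 in replicate 1 and above 0 in replicate 2.

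Resistance genes of the NB-LRR class encode intracellular receptors that recognise pathogen effectors, and many are predicted targets of miR482 and miR472. Of 29 such loci tested 1 was higher and 1 was lower in PK (median 0.25), against 0.496% and 1.14% of all loci. With the block 4 were higher and 2 lower, against 1.32% and 2.02% of all loci. On scaffold 3, 8 of 10 such loci had positive log2 fold changes and 2 had negative ones, from -0.96 to 5.93 with a median of 2.16. The 6 annotated as TIR-NBS-LRR had values from 1.91 to 5.93 with a median of 3.58. Differences between scaffolds were not tested, and class and place cannot be told apart. The called member XLOC_007047 (22197534 to 22229230) had 27.7 and 19.4 CPM in PK against 0 and 0.790 CPM in CM (5.78 ± 1.06, adjusted p 0.049). XLOC_007044 had 4.15 and 7.5 CPM in PK against 0.204 and 0 CPM in CM (adjusted p 0.0735, and 0.0344 with the block). Both lay far above CM in each PK library.

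XLOC_007050 had 2.30 and 2.83 CPM in PK against 0.068 and 0.325 CPM in CM (adjusted p 0.116, and 0.0468 with the block), and XLOC_007051 had 3.05 and 2.44 CPM in PK against 0.272 and 0.186 CPM in CM (0.0661, and 0.0413 with the block). The loci from XLOC_007038 to XLOC_007051 lie between 21953022 and 22247068, overlap 1 long locus (XLOC_005437) and may share reads. They are not independent of each other. The 13 loci on scaffold 7, mostly annotated as CC-NBS-LRR, had a median of 0.18, and none was called with or without the block. The most abundant of them, XLOC_016492, had 386 and 330 CPM in PK against 725 and 270 CPM in CM, so that the groups overlapped.

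On scaffold 5 the NB-ARC locus XLOC_012195 (31631957 to 31635063) had 0.922 and 0.292 CPM in PK against 8.50 and 8.09 CPM in CM (-3.77 ± 0.65, adjusted p 0.0422). XLOC_012213 had 11 and 21.8 CPM in PK against 69.1 and 72.8 CPM in CM (adjusted p 0.218, and 0.0258 with the block). Of 5 resistance entries in the common list, which include XLOC_007038 of the loci above, 1 was called, lower in PK (median -3.05). It was the RGA4-like locus XLOC_010681, with 0.115 and 0.195 CPM in PK against 13.7 and 11.9 CPM in CM (-6.30 ± 0.87, adjusted p 0.0226).

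**Figure D5:**
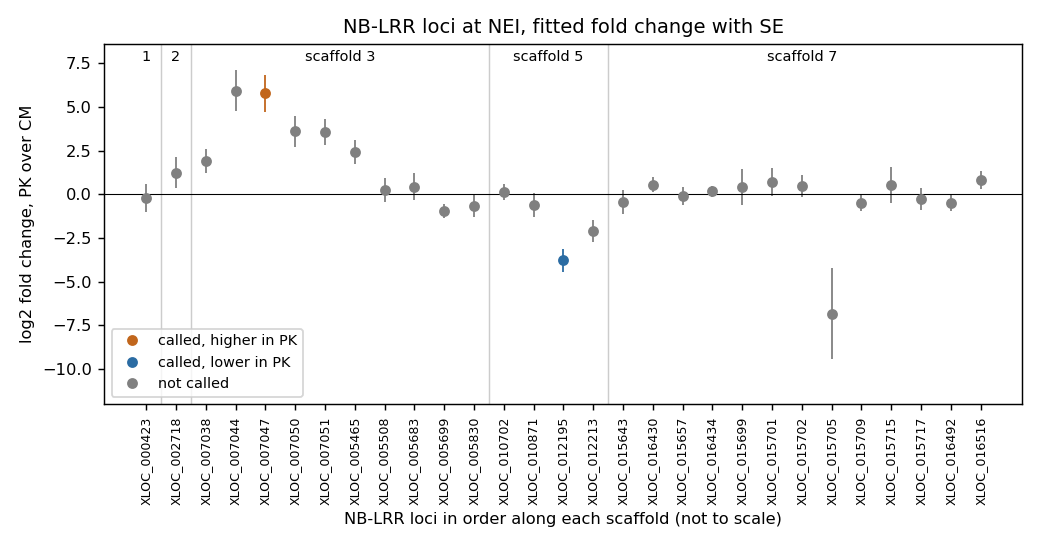
Fitted log2 fold change of PK over CM at NEI with its SE (vertical axis) for 29 NB-LRR loci in their order along scaffolds 1, 2, 3, 5 and 7 (horizontal axis, not to scale). The first 6 loci on scaffold 3 lie between 1.91 and 5.93, while on scaffold 7 all loci but XLOC_015705, which had counts in CM replicate 2 alone, lie within 1 of 0.

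The transcription factor families that are predicted targets of conserved microRNAs held 1 called locus, SPL2, where 1.64% of all loci tested were called. Of 10 SBP-box factors, which promote phase change and are targets of miR156, 1 was lower in PK and none was higher (median 0.12). SPL2 (XLOC_009144, Ciclev10031391m.g, scaffold 4, 21170768 to 21177408) had 16.1 and 11.5 CPM in PK against 49.6 and 52.3 CPM in CM (-1.88 ± 0.32, adjusted p 0.0405). With 1 library left out its adjusted p was 0.0835 to 0.166. The most abundant of the other SBP-box loci, XLOC_009763, had 18.7 and 56.5 CPM in PK and 11.6 and 27.8 CPM in CM, with the higher value in replicate 2 of each cultivar.

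None of 9 growth-regulating factors, which promote cell proliferation and are targets of miR396, was called (median -0.15). The most abundant, growth-regulating factor 1 (XLOC_016164), had 61.2 and 208 CPM in PK and 274 and 169.1 CPM in CM. PK was the lower in replicate 1 and the higher in replicate 2. The same held for growth-regulating factor 7 (XLOC_006917), with 13.1 and 132 CPM in PK and 70.9 and 79.4 CPM in CM. In all 9 the PK replicate 2 library was above the PK replicate 1 library.

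None of 4 HD-ZIP III factors, which set organ polarity and vascular pattern and are targets of miR166, was called, and all 4 had negative values (median -0.56). XLOC_002981, a locus with 2 genes of the annotation, had 10.9 and 15 CPM in PK and 82.3 and 45.5 CPM in CM (-2.30 ± 0.59, adjusted p 0.139, and 0.0518 with the block). DESeq2 and the edgeR exact test called it lower. The most abundant member, XLOC_007871, had 208 and 306 CPM in PK against 423 and 278 CPM in CM, so that the groups overlapped. None of 4 NAC factors was called (median 0.66). The most abundant, XLOC_014128, an NAC100 locus, had 919 and 900 CPM in PK against 566 and 483 CPM in CM (0.79 ± 0.35, adjusted p 0.429).

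Likewise none was called of 8 auxin response factors and auxin receptors (median -0.06), 5 GRAS factors (0.65), 4 AP2-like factors (-0.16), 4 MYB factors (-0.26), 3 nuclear factor Y subunits (0.59) and 2 MADS-box factors (0.23). Among 10 receptor kinases predicted as microRNA targets none was called (median -0.31), and 1 was lower with the block. It was XLOC_009613, with at most 0.0974 CPM in PK and 1.29 and 3.76 CPM in CM. Of 6 predicted targets of miRN23, none was called (median 0.02), where 1.64% of all loci were. XLOC_017325 on scaffold 8, without an annotation from the study, had 5.07 and 10.8 CPM in PK against 34.6 and 40.9 CPM in CM (-2.25 ± 0.46, adjusted p 0.0672, and 0.0157 with the block). The other 5 had values from -1.0 to 0.30. XLOC_017325 lies inside the span of XLOC_017324, another of the 6, and the pair may share reads. By the study's coordinates that span also holds the miRN23 precursor. XLOC_017324 had 24.9 and 45.1 CPM in PK against 73.2 and 67.0 CPM in CM. XLOC_018738 holds the gene whose transcript the study reported as cleaved by miRN23. It had 23.9 and 23.7 CPM in PK against 11.1 and 29.9 CPM in CM (0.21 ± 0.47, adjusted p 0.911).

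Some loci had counts in one cultivar alone. Under 3 counts in each CM library and at least 1 CPM in both PK libraries were found at 72 loci, of which 30 had no count in CM, 17 had a gene of the annotation and 31 were called. The reverse held at 157 loci, of which 83 had no count in PK, 48 had a gene and 108 were called. Their median levels in the other cultivar were 3.29 and 4.24 CPM. With the transcripts of a locus summed, in place of the count of its most read transcript, such loci numbered 16 for CM and 59 for PK. With the first or second PK library of this stage left out they numbered 136 or 149 for CM and 201 or 211 for PK, and with the first or second CM library left out 97 or 159 for CM and 295 or 206 for PK. The cysteine proteinase 15A-like locus XLOC_008753 (scaffold 4) had 738 and 102 counts in PK (42.5 and 4.97 CPM) against 1 and 0 counts in CM. The ratio was 803, with an exact 95% counting interval of 144 to 31766. The ankyrin repeat locus XLOC_000146 had 88 and 21 counts in PK against 2 and 0 in CM (ratio 52.1, interval 14.1 to 436), and was called with the block (adjusted p 0.0348) and not without it (0.119).

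In the other direction an ATP-binding protein locus (XLOC_002119, scaffold 13) had no count in PK and 48 and 66 counts in CM, which makes it at least 19.8-fold lower in PK against a floor of 3 counts per library. The CC-NBS-LRR locus XLOC_006886 had 1 and 0 counts in PK against 40 and 91 in CM (ratio of CM to PK 137, interval 24.2 to 5451, adjusted p 0.0792, and 0.0342 with the block). The highest of the loci without a gene of the annotation was XLOC_002101, with 40.4 and 35.4 CPM in PK and no count in CM, or at least 221-fold higher in PK.

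Called loci often lay near each other. Of the 307, 103 (33.6%) had another called locus within 20 kb, against 5.06% of all loci tested, and 93 of these had a neighbour of the same direction. Of them 70 overlap another called locus, so that part of this is the same stretch of the genome counted again. A pair of stretches carried large differences without a gene of the annotation. On scaffold 8 near 22.6 Mb, XLOC_018186 (22582359 to 22585793) had 317 and 526 CPM in PK against 3.53 and 8.27 CPM in CM. Beside it XLOC_018187 (22587042 to 22591126) had 358 and 194 CPM in PK against 9.18 and 14.6 CPM in CM, and the overlapping XLOC_018506 had 136 and 81.9 CPM against 1.43 and 1.44 CPM. All 6 called loci of that megabase were higher in PK.

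Elsewhere on scaffold 8, XLOC_018361 and XLOC_018364 (3323311 to 3338275 together), both annotated as probable carboxylesterase 2, had 144 and 30.8 CPM and 280 and 55.4 CPM in PK against at most 2.65 CPM in CM. Both were called (adjusted p 0.037 and 0.0416), and both were higher in replicate 1 of each cultivar. Of 294 windows of 1 Mb, 143 held no called locus and 10 held at least 5. The most were in scaffold 3 from 27 to 28 Mb, with 8 of 46 loci tested, 2 higher and 6 lower in PK. On scaffold 3 from 37 to 38 and from 40 to 41 Mb, 5 and 6 loci were called, all lower in PK. By scaffold the share called ran from 0.833% to 2.24% on scaffolds 1 to 9, and it was 13.4% (11 of 82) on the small scaffolds.

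Only 10 called loci differed by 2 to 4-fold, and all 10 had a gene of the annotation. Besides the lipoxygenase, SPL2, SDL-1 and XLOC_011011, XLOC_006595 had 128 and 109 CPM in PK against 42.7 and 37 CPM in CM (1.58 ± 0.26, adjusted p 0.0385). XLOC_004191 had 69.8 and 78.8 CPM in PK against 220 and 200 CPM in CM (-1.50 ± 0.26, adjusted p 0.0437). None of the 10 stayed called in any fit that left out a library.

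The difference between the cultivars was set against that at 3 DAF, whose libraries give other means but had a part in the spread behind the calls. Called loci and all loci are unlike in size of difference, which was 16-fold or more at 241 of 307 and at 571 of 18749. Their shares of direction are therefore not like for like. Of the 307 called loci 305 had the same direction at pre-NEI, against 11777 of all 18749 loci. The exceptions were LAC, whose mean at pre-NEI was 238 CPM in PK and 634 CPM in CM, and XLOC_001612, a predicted protein with 5.12 and 7.82 CPM at pre-NEI and with 78.5 and 129 CPM in PK against 2.11 and 1.58 CPM in CM at NEI. The contrast of the 2 stages was 4.60 ± 0.73 for LAC (unadjusted p 0.000296, edgeR adjusted p 0.412). No locus passed the adjusted threshold for this contrast in the quasi-likelihood test, while 1540 of all loci and 42 of the 307 had an unadjusted p under 0.05. The cultivar difference was therefore not shown to differ between the stages for LAC or any other locus.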

How the data were processed

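Ovule mRNA libraries were made from Trizol-extracted RNA and sequenced by Illumina. Per the study's methods and the submitters' processing notes, reads of PK and CM were aligned with TopHat and Bowtie to the clementine genome (build and versions not given in the sources used here) and assembled with Cufflinks. Cuffdiff is also listed. The authors deposited 1 whole number per transcript and library without a unit in the header, read here as counts, and pooled FPKM values, used only as levels per length and in 1 check. The log2 ratio of the deposited FPKM and the count fold change had a Spearman correlation of 0.926 across 17998 loci, which are not independent replicates. Each locus was given the count of 1 transcript, the one with most reads over 8 libraries.

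Loci with at least 1 CPM in 2 libraries were tested with edgeR 4.0.16 (R 4.3.3), TMM, 8 libraries as 4 groups and 4 residual degrees of freedom. CPM are TMM-scaled, with totals of 17.9 to 24.9 megacounts. An SE was derived from the fitted change and its F statistic. The replicate 2 to replicate 1 log ratio was correlated between groups, with r of 0.332 to 0.543 over the 6 group pairs. A fit with the replicate number as block is therefore given at many of the loci where it changed a call. Fits were tested on simulated counts that held no shift between replicate numbers. That test therefore could not assess the fits where such a shift exists, as it does here. DESeq2 1.42.0, the edgeR exact test, other filters, scalings and counts, and 8 leave-one-out fits were the alternatives.

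Functions are those that the study assigned by sequence similarity, matched to 761 loci. Members, lists and rules were chosen with earlier results of these data known. Named were the called members of each list or else its up to 3 most abundant, the 10 most abundant called annotated loci each way, the genes followed by PCR, the miRN23 targets and up to 3 of the most abundant annotated loci silent in each cultivar. Values are not printed for all of them. Other loci were named after their values were seen, namely those without a gene of the annotation, uncalled members and the 2 to 4-fold loci.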

Additional observations from a re-analysis of the deposited data

How the results depend on the processing

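The counts of loci called, higher and lower in PK were 625, 247 and 378 in the fit with the replicate block, 1085, 434 and 651 in DESeq2, 808, 301 and 507 in the edgeR exact test, and 203, 54 and 149 at a minimum of 5 CPM. RLE size factors (304), no filter (292) and the sum over transcripts (243) stayed within 1.5 times of 307. With the 4 libraries of the comparison alone the edgeR quasi-likelihood test called 0 loci (0 higher and 0 lower, lowest adjusted p 0.0507), with 1487 at an unadjusted p under 0.05. Leaving out 1 library gave 2 to 138 called, 0 to 23 higher and 2 to 115 lower, and the lone library leaves fewer degrees of freedom. With CM replicate 1 of NEI left out, 0 were higher and 1778 loci had an unadjusted p under 0.05. The contrast with pre-NEI called 0 loci in every edgeR quasi-likelihood fit run. Loci with under 3 counts in each library of CM (72) or PK (157) numbered 16 and 59 when transcripts were summed, and 97 to 159 and 201 to 295 with a library left out.

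Of the 34 named loci that were called, 34 stayed called with the block, in DESeq2 and in the exact test, 33 with RLE, 31 with no filter, 23 of 29 at 5 CPM and 21 of 30 with sums. With 1 library left out, 0 to 11 stayed called. Of the 57 not called, 8 were called with the block, 15 in DESeq2 and 13 in the exact test. The block turned the sign of XLOC_008675 (-0.12). Leaving out a library turned the sign of uncalled loci. Their log2 fold changes ran from -1.56 to 1.55 (XLOC_001625), -0.59 to 0.84 (XLOC_004083), -1.23 to 1.62 (XLOC_004089), -1.70 to 0.44 (XLOC_004195), -2.16 to 0.66 (XLOC_005928), -1.60 to 0.18 (XLOC_006054), -0.087 to 0.26 (XLOC_006284), -0.23 to 1.11 (XLOC_006335), -2.52 to 0.82 (XLOC_006917), -0.42 to 0.0098 (XLOC_007308), -0.69 to 0.78 (XLOC_007936), -1.40 to 0.92 (XLOC_008675), -0.090 to 0.65 (XLOC_008734), -0.17 to 0.076 (XLOC_010167), -0.15 to 0.26 (XLOC_010869), -1.13 to 0.35 (XLOC_011587), -0.55 to 0.80 (XLOC_014680), -0.13 to 0.052 (XLOC_015736), -0.035 to 0.49 (XLOC_016294), -0.17 to 0.027 (XLOC_016501), -1.11 to 0.13 (XLOC_018152), -0.87 to 0.43 (XLOC_018188), -0.35 to 1.1 (XLOC_018738), -0.52 to 0.69 (XLOC_019518) and -0.50 to 1.21 (XLOC_019858). The causes were not tested. Depth limits loci near 0.2 CPM.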
